A study of Mus musculus with 17 samples.

Results

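The genes described here are 6 of the 53693 genes in the annotated count table: the keratins Krt8, Krt18, Krt7 and Krt19, ezrin (Ezr) and villin (Vil1). They were taken by name, with the transcripts of each gene symbol summed under GENCODE mouse release M21, and all 6 were among the 19819 genes that passed the filter on low counts. They were followed in 17 polyA RNA-seq libraries of 5 mouse embryonic stem (ES) cell lines, iFoxA1, iFoxC1, iFoxG1, iFoxL2 and iFoxP3. All were made from the MC1 ES cell line of the 129S6/SvEvTac strain. At the Rosa26 locus each holds the Fox transcription factor of its name, tagged at the C terminus with His6-FLAG, beside a puromycin resistance gene, under a promoter that doxycycline (Dox) represses. The 24 h group was washed free of Dox, so that the transgene was expressed, and was grown in differentiation medium with 10% fetal bovine serum (FBS); it held 3 libraries of iFoxA1 and 2 of each other line. The 0 h group was kept in ES medium with Dox, puromycin, leukemia inhibitory factor (LIF) and 15% FBS; it held 2 libraries of iFoxA1 and 1 of each other line. No line without a transgene was analysed here, so transgene expression, the change of medium and time in culture cannot be told apart in a comparison of 24 h with 0 h. Each factor is represented by 1 line, so line and factor cannot be told apart either.

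Keratins are intermediate filament proteins that assemble only as pairs of a type II and a type I chain. Krt8 and Krt7 are type II chains and Krt18 and Krt19 are type I chains; Krt8 with Krt18 is the first keratin pair of the mouse embryo, made in trophectoderm and later in simple epithelia, where Krt7 and Krt19 join it. Villin bundles and severs the actin filaments of brush border microvilli, and ezrin links actin filaments to the membrane of microvilli and other apical surfaces.

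On mm10, Krt8 (ENSMUSG00000049382.10) lies on chr15:101996698-102004482, minus strand, and Krt18 (ENSMUSG00000023043.7) on chr15:102028180-102032027, plus strand. Their starts lie 23697 bases apart, and the genes run away from each other. Krt7 (ENSMUSG00000023039.17) is on the same chromosome, at chr15:101411043-101430313, plus strand. Krt19 (ENSMUSG00000020911.14) lies on chr11:100140810-100148665, minus strand, Ezr (ENSMUSG00000052397.8) on chr17:6738041-6782784, minus strand, and Vil1 (ENSMUSG00000026175.12) on chr1:74409376-74435559, plus strand.

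The 250 bases upstream of the RefSeq start were available for 5 of the 6 genes, from RefSeq on GRCm38.p6, the assembly of mm10. Of the 6 motifs searched on both strands, the one that the chromosome 15 keratins had in common, and only they of the 5 genes, was CACCTG, an E-box form that the Snail and Zeb repressors of epithelial genes are known to bind. It was found in 17.2% of the 32851 windows of the same length. Vil1 also rose at 24 h and its window did not hold the motif, and any part of the motif in these changes was not tested. The windows of the 3 chromosome 15 keratins, which all rose at 24 h, are shown, each 5′ to 3′ on the gene's strand with the motif in capitals. They are chr15:102004343-102004592 (minus strand) for Krt8, chr15:102027966-102028215 (plus strand) for Krt18 and chr15:101412153-101412402 (plus strand) for Krt7.
Krt8: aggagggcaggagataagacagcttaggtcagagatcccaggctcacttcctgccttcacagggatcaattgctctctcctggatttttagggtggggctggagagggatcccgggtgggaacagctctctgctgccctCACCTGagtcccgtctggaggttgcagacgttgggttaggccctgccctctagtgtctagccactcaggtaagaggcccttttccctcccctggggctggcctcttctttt
Krt18: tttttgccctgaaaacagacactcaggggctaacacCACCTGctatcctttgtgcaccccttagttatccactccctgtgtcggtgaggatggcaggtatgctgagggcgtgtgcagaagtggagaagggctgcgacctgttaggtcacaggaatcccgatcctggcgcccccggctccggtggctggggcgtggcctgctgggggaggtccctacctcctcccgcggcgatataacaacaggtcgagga
Krt7: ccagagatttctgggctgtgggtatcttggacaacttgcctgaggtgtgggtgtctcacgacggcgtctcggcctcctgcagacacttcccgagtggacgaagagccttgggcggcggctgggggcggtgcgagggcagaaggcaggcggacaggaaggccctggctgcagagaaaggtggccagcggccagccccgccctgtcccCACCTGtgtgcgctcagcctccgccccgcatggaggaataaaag
The motif begins 111 bases before the RefSeq start in Krt8, 214 in Krt18 and 44 in Krt7. The GENCODE spans given above begin further upstream than these RefSeq starts. The Krt7 window lies wholly inside its gene's span, and those of Krt8 and Krt18 lie partly inside theirs. In Krt8 and Krt7 the motif itself falls inside the span. The forkhead motifs TGTTTAC and TGTTTGC were in 0 of the 5 windows, against 3.17% and 4.3% of all windows. GGGCGG was in the windows of Krt7, Ezr and Vil1 and in 32.7% of all, TGACTCA in that of Ezr and 4.46% of all, and TATAAA in none of the 5 and 12.4% of all. A match is only a match of letters, and no match says only that these letters are not in this window.

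The libraries held 17.7 to 20.3 M estimated counts in 6 of the 24 h libraries, 32.9 to 37.2 M in the other 5 and 18.8 to 22.2 M in the 6 at 0 h. The 5 deeper libraries were iFoxA1 replicate 3 and replicate 2 of every other line, all at 24 h, so no deeper library exists at 0 h. Every deeper library stood apart from the shallower replicates of its line. The chi-square per gene between the counts of 2 replicates was 81.6 in iFoxC1, 79 in iFoxG1 and 85.8 in iFoxP3 at 24 h. In the same-depth pairs of iFoxA1 it was 2.8 at 0 h and 3.32 at 24 h. It was highest for the deeper library of iFoxA1, at 172 and 164, and that of iFoxL2, at 206. These 2 deeper libraries also held less of their own transgene than their replicates. Foxa1 was at 236.5 and 252.3 CPM (counts scaled to the library total by TMM) in iFoxA1 replicates 1 and 2 at 24 h but at 76.7 CPM in replicate 3, against 1.87 and 3.05 CPM at 0 h. Foxl2 was at 149 CPM in iFoxL2 replicate 1 at 24 h and at 11.5 CPM in replicate 2, against 1.14 CPM at 0 h. These 2 libraries are called the low-transgene libraries, and results that turn on them are given with and without them. All 11 ES cell markers exceeded 0.5 TPM (a level corrected for transcript length as well as depth) in some library of each group, with summed levels of 3527 to 6156 TPM at 24 h and 5632 to 7178 TPM at 0 h. The highest sums at 24 h were those of the low-transgene libraries, 6156 TPM in iFoxA1 and 5555 TPM in iFoxL2, and the next was 4988 TPM.

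After 24 h, 4 of the 6 genes rose on average over the 5 lines: Krt18, Vil1, Krt7 and Krt8. In the background of all 19819 genes tested, 21.7% rose in the same comparison. Krt19 and Ezr did not pass. Changes are log2 differences, 24 h minus 0 h, with each line given equal weight, from edgeR's quasi-likelihood test with Benjamini-Hochberg adjustment over all genes tested and a threshold of 0.05. The labels do not say that replicates were separate cultures, so a p-value here covers only the spread of these libraries, which may be technical. In bulk RNA, more cells of a type and more RNA per cell cannot be told apart.

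Krt18 had 92.1, 90.4 and 52.2 CPM in iFoxA1 at 24 h, against 11.3 and 11.4 CPM at 0 h. In the other lines it had 21.2 and 22.2 CPM in iFoxC1, 41.0 and 37.6 CPM in iFoxG1, 69.4 and 28.9 CPM in iFoxL2, and 39.0 and 48.1 CPM in iFoxP3 at 24 h. The 0 h libraries of these lines had 5.74 CPM in iFoxC1, 11.9 CPM in iFoxG1, 20.9 CPM in iFoxL2 and 15.0 CPM in iFoxP3. All 11 of the 24 h libraries stood above all 6 of the 0 h libraries, narrowly so for iFoxC1 against iFoxL2 at 0 h. The average log2 change was 1.84 ± 0.22 (SE; edgeR adjusted p = 0.000227).

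Its partner Krt8 moved less evenly. Krt8 had 98.1, 101 and 48.2 CPM in iFoxA1 at 24 h, against 31.7 and 27.2 CPM at 0 h. At 24 h it had 36.3 and 40.1 CPM in iFoxC1, 31.9 and 39.5 CPM in iFoxG1, 101 and 20.2 CPM in iFoxL2 and 47.5 and 65.4 CPM in iFoxP3. At 0 h it had 11.5 CPM in iFoxC1, 21.2 CPM in iFoxG1, 34.6 CPM in iFoxL2 and 23.9 CPM in iFoxP3. Of the 11 libraries at 24 h, 10 stood above the 0 h level of their own line, and the low-transgene library of iFoxL2 stood below it. The average log2 change of Krt8 was 1.20 ± 0.33 (SE; edgeR adjusted p = 0.0184).

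Krt7 had 17.9, 17.9 and 19.8 CPM in iFoxA1 at 24 h, against 1.24 and 0.968 CPM at 0 h. The other lines at 24 h had 5.90 and 5.69 CPM in iFoxC1, 3.42 and 4.36 CPM in iFoxG1, 5.08 and 0.909 CPM in iFoxL2, and 4.16 and 3.36 CPM in iFoxP3. At 0 h they had 1.37 CPM in iFoxC1, 1.75 CPM in iFoxG1, 2.65 CPM in iFoxL2 and 2.98 CPM in iFoxP3. At 24 h the 3 iFoxA1 libraries stood apart from the 8 others, and the lowest of all 17 was the low-transgene library of iFoxL2. The average log2 change of Krt7 was 1.56 ± 0.33 (SE; edgeR adjusted p = 0.00511).

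Vil1 had 3.52, 4.25 and 5.11 CPM in iFoxA1 at 24 h, against 0.957 and 1.06 CPM at 0 h. In the other lines at 24 h it had 1.34 and 1.89 CPM in iFoxC1, 2.27 and 2.76 CPM in iFoxG1, 2.19 and 4.08 CPM in iFoxL2, and 2.66 and 2.47 CPM in iFoxP3. Their 0 h libraries had 1.18, 0.874, 0.433 and 1.14 CPM in iFoxC1, iFoxG1, iFoxL2 and iFoxP3. All 11 libraries at 24 h stood above all 6 at 0 h, and the average log2 change was 1.61 ± 0.20 (SE; edgeR adjusted p = 0.000329). In both iFoxA1 and iFoxL2, the highest Vil1 level was that of the low-transgene library.

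**Figure D1:**
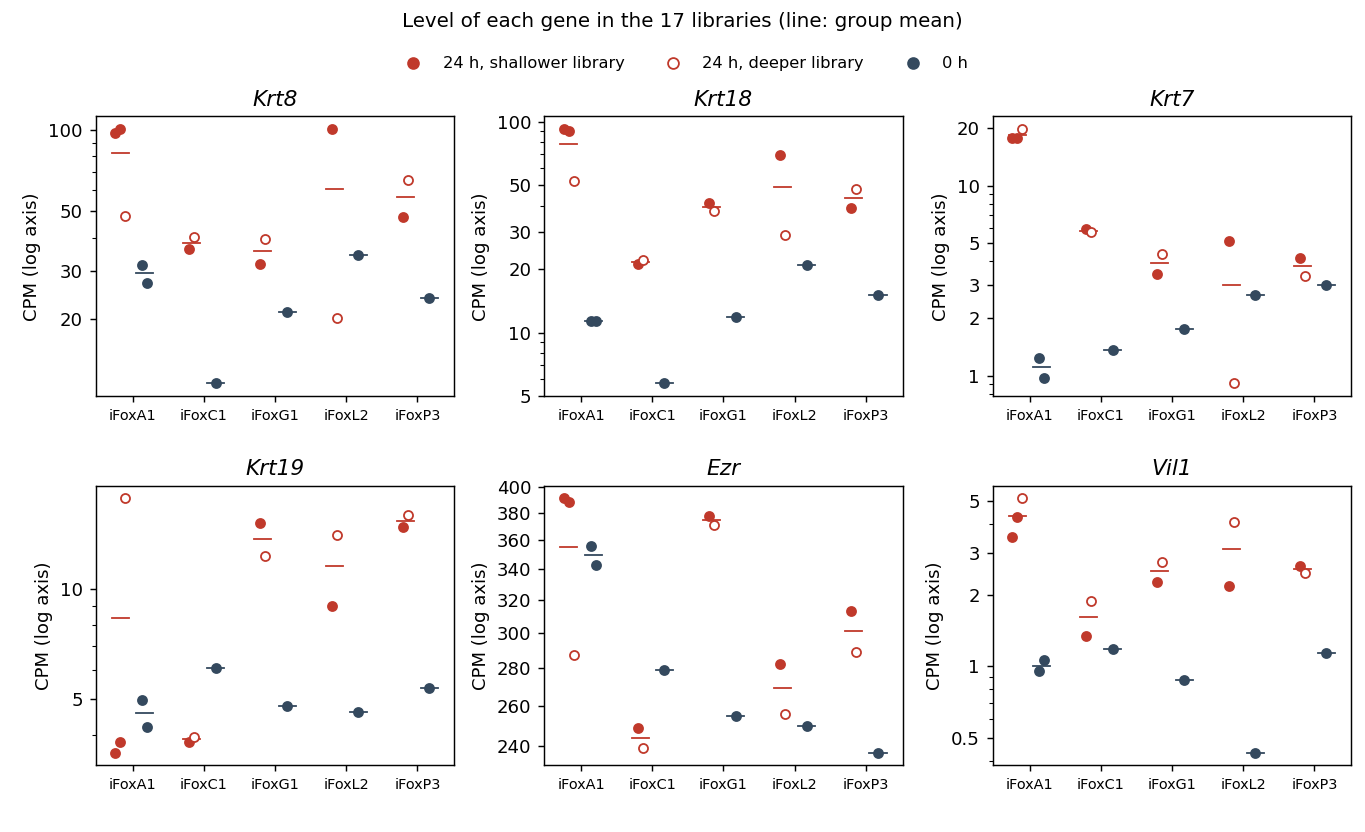
Level of each of the 6 genes in CPM (log axis) in the 17 libraries, by line, with 24 h left of 0 h, open points for the 5 deeper libraries and a short line for each group mean. Krt18 and Vil1 were higher in all 11 libraries at 24 h than in all 6 at 0 h, while Krt19 lay in a low set of 4 and a high set of 7 libraries at 24 h.

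Krt19 split the 24 h libraries. It had 3.57, 3.82 and 17.7 CPM in iFoxA1 at 24 h, against 4.98 and 4.21 CPM at 0 h, and 3.82 and 3.95 CPM in iFoxC1 at 24 h, against 6.07 CPM at 0 h. It had 15.2 and 12.3 CPM in iFoxG1, 9.00 and 14.1 CPM in iFoxL2 and 14.8 and 15.9 CPM in iFoxP3 at 24 h, against 4.78, 4.60 and 5.36 CPM at 0 h. The 7 libraries of iFoxG1, iFoxL2, iFoxP3 and the low-transgene library of iFoxA1 lay above every 0 h library, and the other 4 lay below all 6 of them. The average log2 change of Krt19 was 0.92 ± 0.36 (SE) and missed the threshold (edgeR adjusted p = 0.0728).

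Ezr was by far the most abundant of the 6. It had 391, 388 and 287 CPM in iFoxA1 at 24 h, against 356 and 343 CPM at 0 h. The other lines at 24 h had 249 and 239 CPM in iFoxC1, 378 and 371 CPM in iFoxG1, 282 and 256 CPM in iFoxL2 and 313 and 289 CPM in iFoxP3. Their 0 h libraries had 279, 255, 250 and 237 CPM in iFoxC1, iFoxG1, iFoxL2 and iFoxP3. The times overlapped, with 8 of the 11 libraries at 24 h above the 0 h level of their own line, and the average log2 change of Ezr was 0.17 ± 0.08 (SE; edgeR adjusted p = 0.139).

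Leaving out the low-transgene libraries brought all 6 genes past the threshold for the average change, where 52.8% of genes tested passed in either direction. Krt19 then had a log2 change of 0.61 ± 0.08 (SE; edgeR adjusted p = 0.000574) and Ezr of 0.21 ± 0.04 (SE; edgeR adjusted p = 0.00229). Krt8, Krt18, Krt7 and Vil1 kept their calls in all 17 fits that each left out 1 library. Krt19 was called in 4 of these 17, namely without iFoxC1 at 0 h or without any single one of the 3 iFoxA1 libraries at 24 h, and Ezr in the 1 without iFoxA1 replicate 3.

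Other cell type markers moved with time as well, where 21.7% of all genes rose. Of the 10 trophoblast markers tested, 6 rose and 0 fell on average at 24 h, and the list summed to 24.6 to 92.0 TPM at 24 h, against 22.6 to 59.4 TPM at 0 h. The highest sums at 24 h, 90.7 and 92.0 TPM, were those of iFoxC1. In iFoxA1 alone, 2 trophoblast markers rose and 1 fell, where 6.62% of all genes rose. The list summed there to 34.4 to 43.4 TPM at 24 h and 44.9 to 45.6 TPM at 0 h. Of the 11 ES cell markers, 1 rose and 3 fell. Of 12 gut and foregut markers tested, 5 rose and 1 fell, with summed levels of 30.7 to 149 TPM at 24 h and 22.2 to 33.0 TPM at 0 h. Of 13 primitive and visceral endoderm markers tested, 4 rose and 1 fell. Of 7 stratified epithelium markers tested, 3 rose and 0 fell, and of 8 fibroblast and mesothelium markers, 3 rose and 1 fell. The trophoblast hormone gene Prl3d1 was at 0 in all 17 libraries, and Psg17 of the same list and Tff3, Fabp1 and Muc13 of the gut list stayed under 0.5 TPM in all 17. The part of these cell types in the changes of the 6 genes was not tested.

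Within single lines, 3 of the 6 genes rose in iFoxA1, where 6.62% of all genes tested did. They were Krt7 (log2 change 4.06 ± 0.63, SE; edgeR adjusted p = 0.00371), Krt18 (2.78 ± 0.38, SE; edgeR adjusted p = 0.00211) and Vil1 (2.08 ± 0.35, SE; edgeR adjusted p = 0.00552). The calls of Krt7 and Vil1 were lost without either of the iFoxA1 libraries at 0 h, with adjusted p up to 0.0623 for Krt7 and 0.0808 for Vil1. Krt8 had a log2 change of 1.48 in iFoxA1 (adjusted p = 0.141), which passed without the low-transgene libraries at 1.75 ± 0.18 (SE; edgeR adjusted p = 0.000443). In that fit 4 genes passed, and 26.3% of genes tested did in either direction. Krt19 had 0.87 with all libraries and -0.32 without the low-transgene ones, and passed in neither fit.

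In iFoxC1, Krt18 alone rose (log2 change 1.92 ± 0.51, SE; edgeR adjusted p = 0.0457; 6.23% of genes tested rose), a call that held in 4 of the 16 fits leaving out 1 library in which it could be estimated. In iFoxL2, Vil1 alone rose (2.84 ± 0.52, SE; edgeR adjusted p = 0.0222; 2.31% rose), and this call held in 16 of 16. All 16 fits kept the only iFoxL2 library at 0 h, so they could not test how far the call rests on it. That library held 8 Vil1 counts, at 0.433 CPM, against 0.874 to 1.18 CPM in the other lines at 0 h. The call was lost with no filter and with limma on TPM. No member passed in iFoxG1 or iFoxP3, where 3.34% and 3.25% of genes tested rose. By edgeR's unadjusted p under 0.05 the count was 3 in iFoxG1 (Krt18, Vil1 and Ezr) and 2 in iFoxP3 (Krt18 and Vil1), and DESeq2 called 1 gene in each. Here and below, the share of all genes at an unadjusted p under 0.05, or called by DESeq2, is not given. Such counts therefore have no background to be read against. A call in 1 line and not in another does not show a difference between them. The F test of whether the 5 changes differed called none of the 6 genes with all libraries, against 0.984% of all genes, with Krt7 and Vil1 under an unadjusted p of 0.05 and 1 gene called by DESeq2. Its edgeR adjusted p was 0.165 for Krt7, 0.297 for Vil1, 0.537 for Krt18, 0.527 for Ezr and 0.77 for Krt19. Without the low-transgene libraries the F test called 4 genes, Krt7 (adjusted p = 0.00178), Krt19 (0.00296), Krt18 (0.00558) and Ezr (0.0191), where 20.9% of genes passed.

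**Figure D2:**
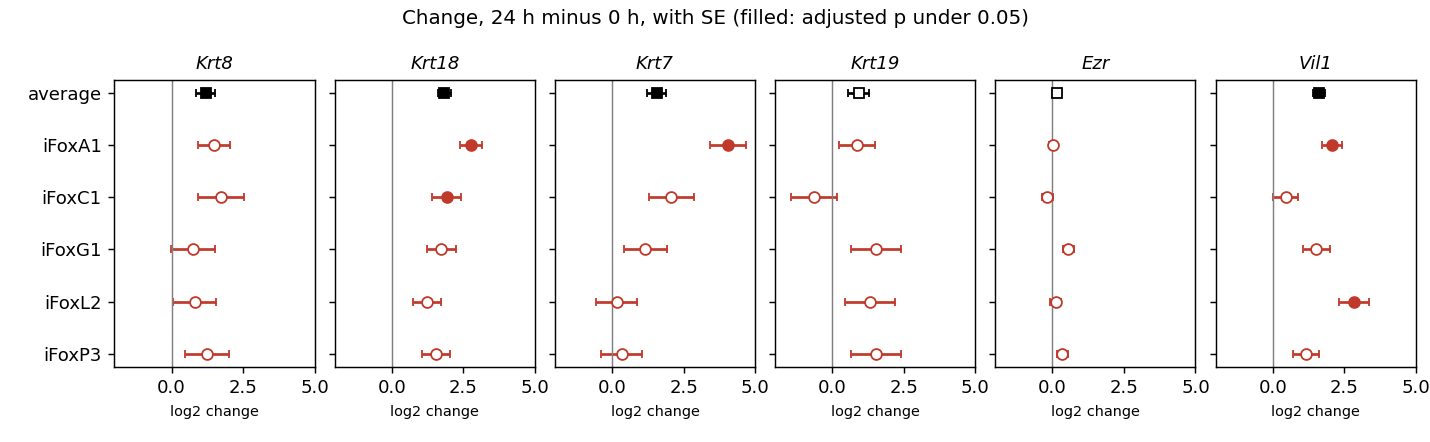
Log2 change, 24 h minus 0 h, of each gene with its SE, as the average of the 5 lines (squares) and in each line (circles), filled where the adjusted p was under 0.05. Krt7 spread most between lines, at 4.06 in iFoxA1 and 0.16 in iFoxL2. Without the low-transgene libraries the Krt7 change was 0.95 in iFoxL2 and lowest in iFoxP3, at 0.35.

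At 24 h, 3 of the 6 genes were higher in iFoxA1 than the mean of the 4 other lines, where 8.88% of genes tested were higher. Krt7 differed most, by a log2 difference of 2.22 ± 0.36 (SE; edgeR adjusted p = 0.0031), and its 3 iFoxA1 libraries at 17.9 to 19.8 CPM lay above all 8 libraries of the other lines, which ranged from 0.909 to 5.90 CPM. Krt18 differed by 1.09 ± 0.24 (SE; edgeR adjusted p = 0.0144). Vil1 differed by 0.84 ± 0.23 (SE; edgeR adjusted p = 0.0347). The call of Krt7 held in 17 of 17 fits that left out 1 library and that of Vil1 in 7 of 17. The call of Krt18 held in 15 of 17 and was lost without iFoxA1 replicate 1 or 2 at 24 h, with adjusted p up to 0.0811.

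Krt8, the partner of Krt18, had a log2 difference of 0.83 (adjusted p = 0.2), with iFoxL2 replicate 1 at 101 CPM level with the highest iFoxA1 library. Ezr had 0.28 (adjusted p = 0.115) and Krt19 -0.23 (adjusted p = 0.81). Without the low-transgene libraries all 6 genes passed, where 32.8% of genes tested did. Krt8 was then higher in iFoxA1 by 0.90 ± 0.14 (SE; edgeR adjusted p = 0.00224), Ezr by 0.38 ± 0.05 (SE; edgeR adjusted p = 0.00171), and Krt19 was lower by a log2 difference of -1.34 ± 0.13 (SE; edgeR adjusted p = 0.000292).

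Within the libraries of one depth, on log2(CPM + 0.5), Krt7 in iFoxA1 exceeded the other lines by 2.50 in the deeper libraries and by 1.86 in the shallower ones. Krt18 was higher by 0.66 in the deeper and by 1.21 in the shallower libraries, and Vil1 by 0.81 and 0.77 in the same order. For these 3 genes the iFoxA1 libraries stood above every other line in both sets. Krt19 had a difference of 0.75 in the deeper set, which holds iFoxA1 replicate 3, and of -1.25 in the shallower set. With 1 iFoxA1 library against 4 in the deeper set and 2 against 4 in the shallower, these values carry no test.

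At 0 h, with Dox present, none of the 6 genes passed between iFoxA1 and the other lines, where 1.56% of genes tested did in either direction. Ezr alone had an unadjusted p under 0.05, with 0.46 ± 0.13 (SE; edgeR adjusted p = 0.137), and DESeq2 called 1 gene. Its 2 iFoxA1 libraries, at 356 and 343 CPM, lay above the other lines, at 237 to 279 CPM. Without the low-transgene libraries 2 genes passed, where 18% of genes tested did. Ezr passed at the same size (0.46 ± 0.06, SE; edgeR adjusted p = 0.00319). Krt7 then passed in the other direction (-0.91 ± 0.18, SE; edgeR adjusted p = 0.0156), so it was lower in iFoxA1 at 0 h and higher at 24 h in that fit.

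Of the other lines, none showed a called difference from the remaining lines at 24 h in any of the 6 genes. The background was 3.69% of genes for iFoxC1, 2.74% for iFoxG1, 1.63% for iFoxL2 and 0.555% for iFoxP3, in either direction. For iFoxC1 against the others, the log2 difference was -1.62 ± 0.59 (SE; edgeR adjusted p = 0.191) for Krt19, -1.22 ± 0.32 (SE; edgeR adjusted p = 0.0758) for Krt18, -0.91 (adjusted p = 0.144) for Vil1 and -0.40 (adjusted p = 0.141) for Ezr. These 4 genes had an unadjusted p under 0.05 and DESeq2 called 3 genes in this comparison, counts for which the matching shares of all genes are not given. For Ezr, both iFoxC1 libraries, at 249 and 239 CPM, lay below all other 24 h libraries, of which the lowest held 256 CPM. Without the low-transgene libraries 5 genes passed for iFoxC1, where 17.3% of genes did. For iFoxG1, Ezr alone had an unadjusted p under 0.05, with a log2 difference of 0.37 ± 0.12 (SE; edgeR adjusted p = 0.18). For iFoxL2 and iFoxP3, 0 of the 6 genes did, and DESeq2 called 0 genes in these 3 lines.

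Many primitive and visceral endoderm markers were higher in the iFoxA1 line at both times. Of 13 tested, 10 were higher and 0 lower in iFoxA1 at 24 h, where 8.88% of all genes were higher. At 0 h, with Dox present, 8 were higher and 0 lower, where 1.56% of all genes passed in either direction. Their summed level did not stand apart at 24 h, at 397 to 448 TPM in iFoxA1 and 191 to 710 TPM in the other lines. At 0 h it was 625 to 630 TPM in iFoxA1 and 400 to 523 TPM in the other lines. From 0 h to 24 h within iFoxA1, 0 of the 13 tested rose and 1 fell, where 6.62% of all genes rose. Of the 14 markers, 1 (Afp) stayed under 0.5 TPM in all iFoxA1 libraries at 24 h and 6 in all libraries of the other lines at 24 h. Of the 12 gut and foregut markers tested, 6 were higher and 0 lower in iFoxA1 at 24 h. Mitochondrially encoded mRNA stood apart in iFoxA1 at 24 h only, at 2.44% to 2.76% of counts, against 1.8% to 2.12% in the 8 other libraries. At 0 h it was at 2.75% and 2.66% in iFoxA1, within the 2.6% to 3.71% of the other lines. The part of these in the higher Krt7, Krt18 and Vil1 of iFoxA1 was not tested.

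Compared per length, in TPM, the order of the genes at 24 h was Ezr, Krt18, Krt8, Krt19, Krt7 and Vil1, with medians over the 11 libraries of 115, 34.2, 22.3, 12.3, 2.35 and 1.34 TPM. At 0 h the order was Ezr, Krt8, Krt18, Krt19, Vil1 and Krt7, with medians over the 6 libraries of 102, 14.6, 10.1, 4.17, 0.592 and 0.422 TPM. Neighbours in these orders overlapped over the libraries, except that Ezr stood clear of the keratins at 0 h, with a lowest level of 77.7 TPM against a highest of 20.8 TPM for Krt8, and that Krt19 stood clear of Vil1 at 0 h. At 24 h the lowest Ezr level, 69.9 TPM, lay below the highest Krt18 level, 90.3 TPM, but in different libraries. The ratio of TPM to CPM itself differed between libraries. For Krt8 it was 0.429 to 0.488 in the deeper and 0.616 to 0.693 in the shallower libraries of 24 h, and 0.454 to 0.663 at 0 h, so an order of libraries by TPM carries that spread.

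Within a library, Krt18 shared that shift with Krt8, at 0.627 to 0.714 in the deeper and 0.874 to 0.981 in the shallower libraries of 24 h. Krt19 shared less of it, at 0.728 to 1.04 in the deeper and 0.841 to 1.08 in the shallower, so the shares of Krt19 below carry part of the shift. Krt8 and Krt7 together made 0.298 to 1.17 TPM for each TPM of Krt18 and Krt19 at 24 h, with a median of 0.697, against 0.771 to 1.37 at 0 h, with a median of 0.969. Type II chains were below type I chains in 9 of the 11 libraries at 24 h, the exceptions being both iFoxC1 libraries.

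Krt19 made up 3.85% and 3.60% of the type I TPM in iFoxA1 replicates 1 and 2 at 24 h but 27.3% in replicate 3, against 32.3% and 29.8% at 0 h. Krt7 made up 23.6% of the type II TPM in iFoxA1 replicate 3, the highest of the 11 libraries at 24 h, against 1.66% to 5.84% over the 6 libraries at 0 h. The low-transgene library of iFoxL2 had the highest Krt19 share, 40.4%, and the lowest type II to type I ratio, 0.298. In CPM of the whole gene, both low-transgene libraries had less Krt8 and Krt18 and more Krt19 than their own replicates, and they differed in Krt7.

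**Figure D3:**
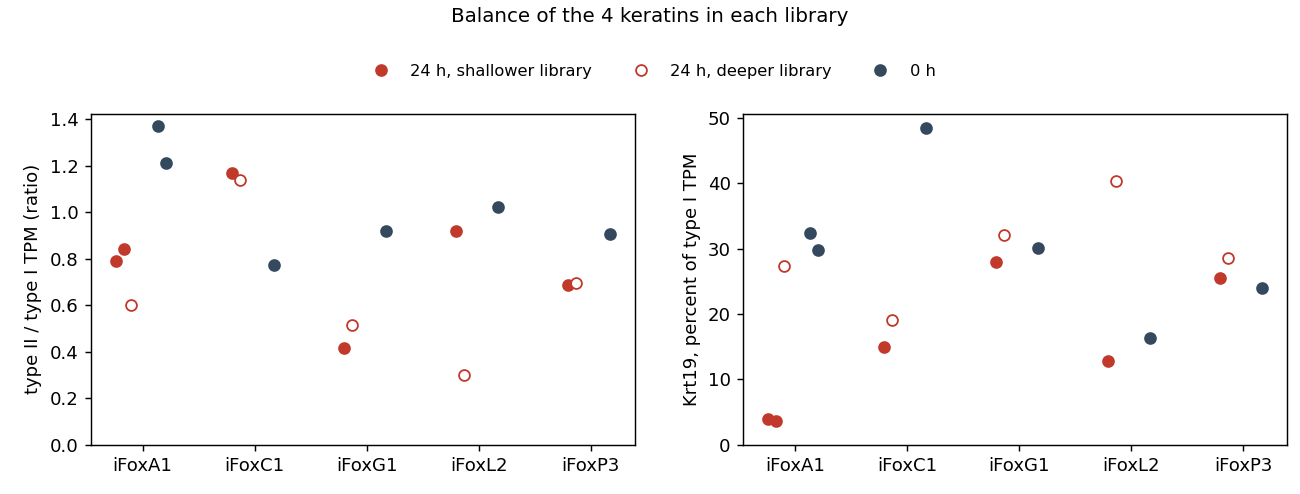
Left, ratio of type II (Krt8 and Krt7) to type I (Krt18 and Krt19) TPM; right, Krt19 as a percent of type I TPM, in each of the 17 libraries by line, with 24 h left of 0 h and open points for the deeper libraries. The Krt19 share was lowest in iFoxA1 replicates 1 and 2 at 24 h, at 3.85% and 3.60%, while the third iFoxA1 library was at 27.3%.

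Over the 11 libraries at 24 h, the levels on log2(CPM + 0.5) of Krt8 and Krt18 were correlated with Pearson's r of 0.83 and Spearman's rho of 0.809. Krt7 had r of 0.674 with Krt8 and 0.592 with Krt18. Krt19 had r of -0.389 with Krt8, -0.0849 with Krt18 and -0.461 with Krt7. Ezr and Vil1 had r of 0.687 and 0.556 with Krt18. These points share line, depth and the low-transgene libraries, and no test was made of them. Among 10250 genes that averaged 5 CPM or more over them, the gene most like Krt8 was Cyb5a (r = 0.963) and that most like Krt7 was Vgll4 (r = 0.957). For Krt19 it was 2610002M06Rik (r = 0.954), for Ezr Dync2h1 (r = 0.97) and for Vil1 Dcaf8 (r = 0.965), all over the same 11 libraries.

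The Krt7 counts of iFoxA1 were divided among annotated transcripts unlike those of the other lines. Krt7-202, annotated as a retained intron, held 33.4% to 50.8% of the Krt7 counts in the 3 iFoxA1 libraries at 24 h, against 0% to 28.1% in the 8 other libraries at 24 h and at most 11.6% at 0 h. It takes in 2040 bases, chr15:101414181-101416220 on mm10, that are not exonic in the coding transcript Krt7-201. In counts, Krt7-202 had 120 to 340 in iFoxA1 at 24 h, and 0 to 54.1 in the other lines. Protein-coding transcripts alone gave a smaller change, with a log2 change of Krt7 in iFoxA1 of 3.28 ± 0.62 (SE; edgeR adjusted p = 0.00714). Its difference from the other lines at 24 h was then 1.51 ± 0.37 (SE; edgeR adjusted p = 0.0175), so both calls held.

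Ezr-202, a processed transcript with only 126 bases (chr17:6740837-6740962) not exonic in the coding Ezr-201, also separated iFoxA1. It held 7.45% to 9.2% of the Ezr counts in the 4 shallower iFoxA1 libraries, of 24 h and 0 h alike. In iFoxA1 replicate 3 it held 0.0217%, with 2.1 counts. In the other lines it held at most 2.83%, and 0 to 16.1 counts in all 5 deeper libraries. How an estimate divides reads between overlapping transcripts can set such shares, and this was not tested. In TPM, where a short transcript weighs more, Ezr had 244 and 231 TPM in iFoxA1 replicates 1 and 2 at 24 h, against 215 and 195 TPM at 0 h.

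**Figure D4:**
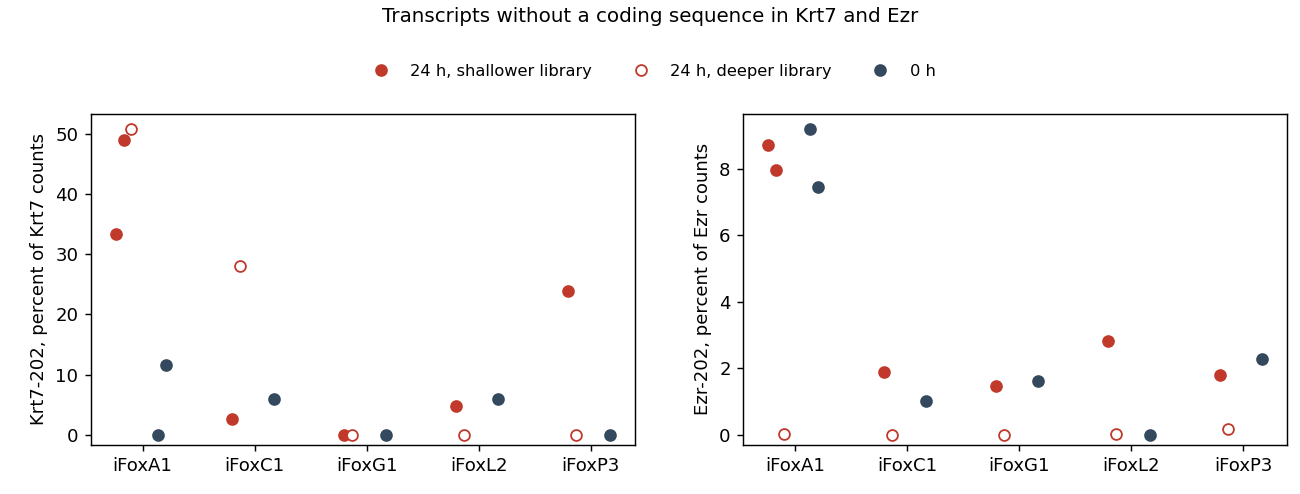
Share of the Krt7 counts in Krt7-202 (left) and of the Ezr counts in Ezr-202 (right), in percent, in each of the 17 libraries by line, with 24 h left of 0 h and open points for the deeper libraries. The Krt7-202 share was 33.4% to 50.8% in iFoxA1 at 24 h, and Ezr-202 was near 0 in all 5 deeper libraries.

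The wider keratin family was mostly too scarce to test. Of 21 other type II keratins, 20 had a row and 2 could be tested; Krt5, a basal keratin of stratified epithelia, rose on average and ranged from 0 to 1.56 CPM at 24 h, against 0 to 0.0968 CPM at 0 h. Of 25 other type I keratins, 10 could be tested, 3 rose and 3 fell, with a median log2 change of -0.52, against 0.04 for all genes tested, of which 21.7% rose. Krt42 fell by 1.97 on the log2 scale, to a mean of 4.40 ± 2.26 CPM at 24 h (SD, n = 11), against 16.0 ± 2.21 CPM at 0 h (SD, n = 6; edgeR adjusted p = 1.4e-05). Krt17, a keratin of activated and basal epithelium, fell by 2.23, to 1.44 ± 1.01 CPM at 24 h (SD, n = 11), against 5.55 ± 2.46 CPM at 0 h (SD, n = 6; edgeR adjusted p = 2.32e-05). Krt20, a keratin of the gut lining, rose by 1.78 ± 0.39 (SE; edgeR adjusted p = 0.00593).

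Most genes that anchor keratins rose. Of 15 desmosome and plakin genes tested, 10 rose and 1 fell on average, where 21.7% of all genes rose, with a median log2 change of 0.57. Ppl (periplakin) rose by 1.17 ± 0.21 (SE; edgeR adjusted p = 0.00229), Jup (plakoglobin) by 0.75 ± 0.22 (SE; edgeR adjusted p = 0.023), Pkp2 (plakophilin 2) by 0.71 and Plec (plectin) by 0.69. In iFoxA1 alone, 2 of the 15 rose and 2 fell, where 6.62% of all genes rose. Each other line taken singly also had only 1 or 2 rises, with 0 falls. The median log2 change was -0.10 in iFoxA1, against 0.59 to 0.80 in the other lines, a difference that was not tested. Plec had a log2 change of -0.53 in iFoxA1 (edgeR adjusted p = 0.0455) and Jup of -0.20 (edgeR adjusted p = 0.81). Pkp2 rose there by 1.11 (edgeR adjusted p = 0.00149) and Dst by 0.48 (edgeR adjusted p = 0.0456). Ppl had 1.27 (edgeR adjusted p = 0.0569). In iFoxA1 against the other lines at 24 h, where Krt18 and Krt7 were higher, 1 of the 15 was higher, near the 8.88% of all genes, and 2 lower. They were Dst (dystonin), higher by 0.51 (adjusted p = 0.00549) and at 0 h already by 0.62 (adjusted p = 0.0389), Plec with -0.90 (adjusted p = 0.000809) and Jup with -1.08 (adjusted p = 0.0352).

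Around villin and ezrin, 19 of 29 brush border and microvillus genes tested rose on average and 4 fell, with a median log2 change of 0.79, against 0.04 for all genes tested, of which 21.7% rose. The list had 37 names. The actin bundlers Pls3 and Pls1 (plastins) rose by 1.4 ± 0.13 (SE; edgeR adjusted p = 5.89e-05) and 1.28 ± 0.11 (SE; edgeR adjusted p = 3.34e-05). Mme (neprilysin, a membrane peptidase) and Myo1a (the brush border myosin) fell by 1.68 and 2.15. In iFoxA1 against the other lines at 24 h, 8 of the 29 were higher, against 8.88% of all genes, and 1 was lower. Cubn (cubilin, an endocytic receptor of visceral endoderm and kidney) differed by 5.02 ± 0.35 (SE; edgeR adjusted p = 4.16e-05), Pls1 by 2.27 ± 0.12 (SE; edgeR adjusted p = 7.13e-06), Myo6 by 1.35 and Myo1e by 1.25. Cubn was already higher at 0 h, with the transgene repressed, by 6.96 (adjusted p = 0.000573), and its change in iFoxA1 was 0.52 (adjusted p = 0.598). Between iFoxA1 and the other lines at 0 h, Pls1, Myo6 and Myo1e differed by -0.15, 0.59 and 0.59. None of these passed (edgeR adjusted p = 0.778, 0.103 and 0.0634), though Myo6 and Myo1e leaned the same way as at 24 h. In iFoxA1, Pls1, Myo6 and Myo1e rose by 3.21, 1.51 and 1.03.

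Of the 6 tested relatives of villin, Gsn (gelsolin), Capg and Avil (advillin) rose on average, by 1.59, 0.92 and 2.54, and 0 fell, where 21.7% of all genes rose. Avil was scarce, with a mean of 0.915 CPM at 24 h and 0.183 CPM at 0 h. In iFoxA1 the change of Gsn was 0.10 (edgeR adjusted p = 0.884), and Gsn was already higher there at 0 h, by 1.63 (edgeR adjusted p = 0.0254). At 24 h, 0 of the 6 were higher in iFoxA1 than elsewhere, where 8.88% of all genes were, and Capg was lower, with -1.31 ± 0.15 (SE; edgeR adjusted p = 0.000451). Of the 14 relatives, kinases and membrane partners of ezrin, 4 rose and 3 fell on average, with a median log2 change of 0.03, a share that rose near the 21.7% of all genes. Prkca (protein kinase C alpha) fell by 2.75 ± 0.16 (SE; edgeR adjusted p = 4.55e-06) and the ezrin-bound adhesion protein Icam1 by 0.99. Ezrin's sister Msn (moesin) had an average change of 0.20 (adjusted p = 0.0939). In iFoxA1 against the other lines at 24 h, 4 of the 14 were higher, where 8.88% of all genes were, and 1 lower, with Prkca at 1.28 and the kinase Slk, which phosphorylates ezrin, at 0.71 among the higher, and Msn, at -0.60, the lower.

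**Figure D5:**
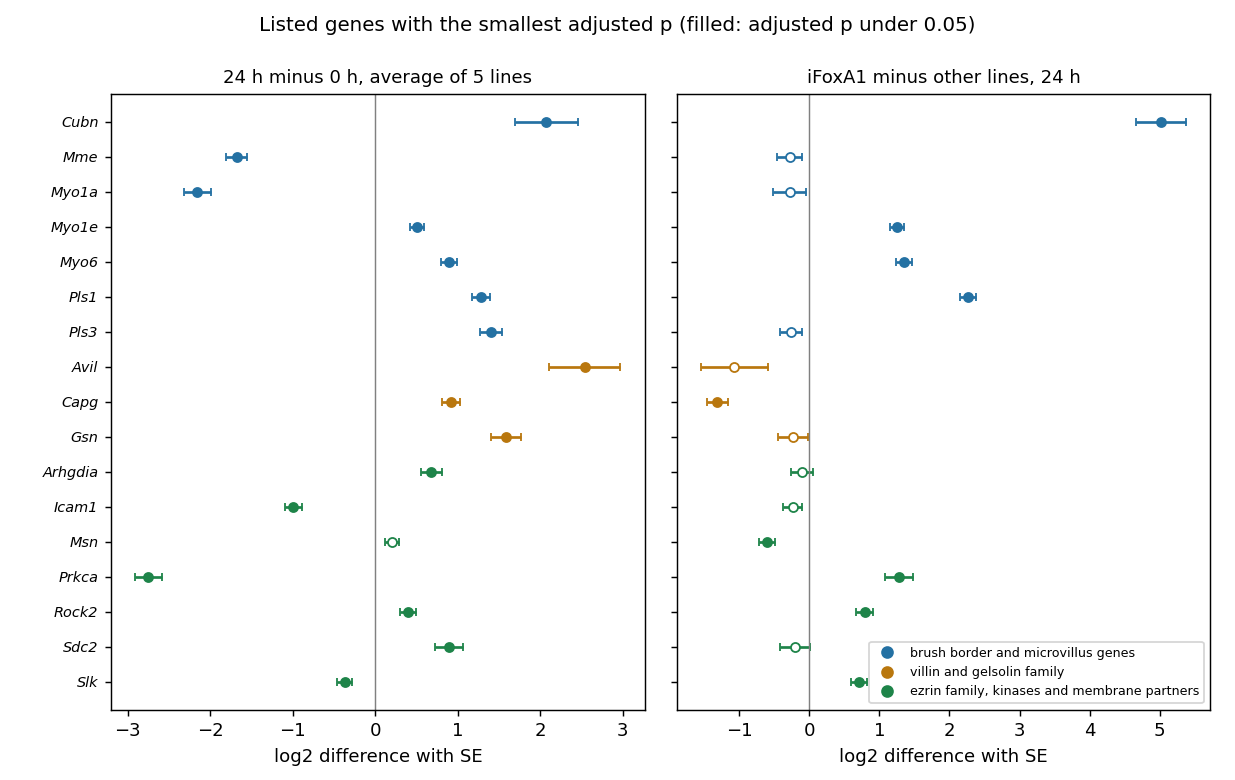
Log2 difference with its SE of the listed genes with the smallest adjusted p around villin and ezrin, for 24 h minus 0 h averaged over the 5 lines (left) and iFoxA1 minus the other lines at 24 h (right), filled where the adjusted p was under 0.05. Pls1, Myo6, Myo1e and Cubn were among the genes called higher on both sides, while Capg rose with time and was lower in iFoxA1.

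Of 23 epithelial transcription factors tested, 10 rose and 2 fell on average, where 21.7% of all genes rose, with a median log2 change of 0.64. Grhl2 and Grhl1, grainyhead factors that maintain epithelial genes, rose by 1.69 and 1.14, and Cdx1, an intestinal homeobox factor, fell by 4.33. In iFoxA1 against the other lines at 24 h, 5 were higher and 4 lower, where 8.88% of all genes were higher. Gata6 and Gata4, factors of endoderm, were higher by 4.27 and 3.89, and Grhl2 and Grhl1 were lower, with -1.48 and -0.80. Gata6 and Gata4 were already higher at 0 h, by 4.10 (adjusted p = 0.000172) and 4.26 (adjusted p = 0.00354), and neither passed for its change in iFoxA1, at 0.77 and -0.42.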

How the data were processed

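Salmon 1.4.0, DESeq2 1.30.1 and mm10 are named in the submitters' processing notes. The authors deposited estimated counts per transcript, not normalised, and TPM for the same transcripts, per the file headers and values. The annotation behind them is not stated in the sources used. Of 137271 transcripts, 137225 were matched to GENCODE M21 by identifier; the other 46 held at most 0.0133% of a library's counts and were left out. Estimated counts were summed per gene and rounded, filtered with filterByExpr (19819 of 53693 genes kept), scaled with TMM and tested by quasi-likelihood in edgeR 4.0.16 under R 4.3.3 as 10 groups of line and time, which left 7 residual degrees of freedom; a lone 0 h library is assumed to vary as the replicated groups do. Tests were 2-sided, with Benjamini-Hochberg adjustment per contrast and a threshold of 0.05. SEs were derived from the F statistic. The fit was tested on simulated data. Tables and plots were made with Python 3.11.15, pandas 2.3.3 and matplotlib 3.10.9.

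The 6 genes, the gene lists, the marker lists and the tests were chosen with earlier results of these data known. All 6 genes are described; in each list, up to 4 other genes with the smallest adjusted p for the average change, and up to 4 for iFoxA1 against the other lines at 24 h, may be named, and for likeness the gene with the highest Pearson's r; some genes that this rule names are not reported here. Other settings tried were size factors by median of ratios, no filter, DESeq2 1.42.0, limma 3.58.1 on log2(TPM + 0.1), protein-coding transcripts only, a replicate block, depth as a term, the shallower libraries only, leaving out each library and, added after the data were seen, leaving out both low-transgene libraries. Library totals ran from 17.7 to 37.2 M estimated counts, and their number limits the precision of the scarce Krt7 and Vil1. Krt8 has a processed pseudogene copy in the annotation with which reads could be shared.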

Additional observations from a re-analysis of the deposited data

Results flagged for a closer look

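Krt19 and Ezr moved in opposite directions in different lines. In iFoxC1 every 24 h library lay below the line's 0 h library, with a log2 change of -0.64 for Krt19 and of -0.19 for Ezr, neither past the threshold with all libraries. In iFoxG1, iFoxL2 and iFoxP3 every 24 h library lay above the line's 0 h library, with log2 changes of 1.52, 1.33 and 1.52 for Krt19 and of 0.56, 0.11 and 0.34 for Ezr, also not past the threshold with all libraries. Without the low-transgene libraries, the change of Krt19 was -0.67 in iFoxC1 and 1.54, 0.98 and 1.54 in iFoxG1, iFoxL2 and iFoxP3. That of Ezr was then -0.22 in iFoxC1 and 0.57, 0.18 and 0.37 in the same 3 lines. Each line had 1 library at 0 h, and the difference between iFoxC1 and any single other line was not tested. The F test over all 5 lines gave an edgeR adjusted p of 0.77 for Krt19 and 0.527 for Ezr, and without the low-transgene libraries 0.00296 and 0.0191.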

How the results depend on the processing

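Counts of the 6 genes called are given here and in the next 2 paragraphs by comparison. For most of these settings the share of all genes called is not given. A setting can raise calls over all genes, as the shares given above without the low-transgene libraries show. These counts therefore describe the settings and are not a result about the 6 genes. With all libraries they were 4 for the average change, 3, 1, 0, 1 and 0 for the change in iFoxA1, iFoxC1, iFoxG1, iFoxL2 and iFoxP3, 0 for the F test, 0 for iFoxA1 at 0 h, 3 for iFoxA1 against the others at 24 h and 0 for each other line. Without the low-transgene libraries they were 6 in iFoxG1, 4 in iFoxC1, 5 each in iFoxL2 and iFoxP3, 4 for the F test, 2 for iFoxA1 at 0 h, and at 24 h 6 for iFoxA1, 5 for iFoxC1, 5 for iFoxG1, 2 for iFoxL2 and 2 for iFoxP3. The shallower libraries alone, with few residual degrees of freedom, gave 6 each in iFoxG1 and iFoxL2, 5 each in iFoxA1, iFoxC1 and iFoxP3, 6 for the F test, 3 for iFoxA1 at 0 h, and at 24 h 6, 5, 5, 3 and 4 for iFoxA1, iFoxC1, iFoxG1, iFoxL2 and iFoxP3. DESeq2 gave 2 in iFoxC1, 1 in iFoxG1, 1 in iFoxP3, 1 for the F test, 1 for iFoxA1 at 0 h and 3 for iFoxC1 at 24 h. Depth as a term gave 2 in iFoxG1, 1 in iFoxP3, 1 for iFoxA1 at 0 h and, at 24 h, 3 for iFoxC1 and 1 for iFoxG1. limma on TPM gave 0 in iFoxC1, 0 in iFoxL2 and 1 for iFoxA1 at 24 h. No filter gave 1 in iFoxG1, 0 in iFoxL2 and 1 for iFoxC1 at 24 h, and size factors by median of ratios gave 0 in iFoxC1. The causes of these shifts were not tested.

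The replicate block gave 3 in iFoxG1, 2 in iFoxL2, 1 in iFoxP3, 1 for the F test, 1 for iFoxA1 at 0 h, and at 24 h 5 for iFoxA1, 3 for iFoxC1, 2 for iFoxG1 and 1 for iFoxP3. The numbers did not pair the samples: deviations of iFoxA1 replicate 2 at 24 h correlated with those of replicate 2 of the other lines at -0.641 to -0.552, and the other replicates 2, all deeper libraries, among themselves at 0.567 to 0.84.

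Leaving out 1 library at a time gave 4 to 6 genes for the average change, 1 to 4 in iFoxA1, 0 to 3 in both iFoxC1 and iFoxG1, 0 to 1 in iFoxP3, 1 to 2 in iFoxL2, 0 to 1 for the F test and 0 to 1 for iFoxA1 at 0 h. At 24 h it gave 1 to 4 for iFoxA1, 0 to 3 for iFoxC1, 0 to 2 for iFoxG1, 0 to 1 for iFoxL2 and 0 to 1 for iFoxP3.

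No value called with all libraries changed sign in any of these settings. The uncalled log2 values below did, 3 of them past the threshold in the other setting, among them Krt8 and Krt18 in iFoxP3 with the shallower libraries. Without the low-transgene libraries, Krt19 in iFoxA1 was -0.32, and at 24 h Krt7 in iFoxC1 was -0.0645, Vil1 0.0537 in iFoxG1, -0.21 in iFoxL2 and 0.0901 in iFoxP3, Krt8 -0.0938 and Krt18 -0.13 in iFoxP3. In the shallower libraries these were -0.30 for Krt19 in iFoxA1, -0.0609 for Krt7 in iFoxC1, -0.0906 for Vil1 in iFoxL2 and 0.24 in iFoxP3, -0.30 for Krt8 and -0.31 for Krt18 in iFoxP3. With the replicate block Krt19 in iFoxA1 was -0.32 and Krt18 in iFoxP3 at 24 h was -0.00247. With limma on TPM the change of Ezr in iFoxA1 was -0.31, at 24 h Vil1 was 0.23 in iFoxG1 and 0.0282 in iFoxP3 and Krt8 -0.20 in iFoxL2, and at 0 h Krt18, Krt19 and Vil1 in iFoxA1 were 0.21, 0.39 and -0.036. Ezr in iFoxP3 at 24 h was 0.0034 with protein-coding transcripts.

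With 1 library left out, the change in iFoxA1 ran from -0.0502 to 0.17 for Ezr and from -0.30 to 1.23 for Krt19, and that in iFoxL2 from -1.54 to 0.95 for Krt7 and from -0.78 to 1.55 for Krt8. Against the other lines at 24 h, Krt19 ran from -1.39 to 0.13 in iFoxA1 and from -0.0015 to 0.66 in iFoxL2, Krt7 from -0.11 to 0.55 in iFoxC1, and Krt8 from -1.32 to 1.02 in iFoxL2 and from -0.10 to 0.54 in iFoxP3. Krt18 ran from -0.28 to 0.0391 in iFoxG1, from -0.52 to 0.77 in iFoxL2 and from -0.13 to 0.23 in iFoxP3. Vil1 ran from -0.27 to 0.0114 in iFoxG1, from -0.23 to 0.65 in iFoxL2 and from -0.18 to 0.0416 in iFoxP3, and Ezr from -0.0832 to 0.0311 in iFoxP3. At 0 h in iFoxA1, Krt18 ran from -0.45 to 0.17 and Vil1 from -0.0684 to 0.42.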

Other observations

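Of 13 other intermediate filament genes tested, 3 rose and 2 fell on average at 24 h, a share that rose near the 21.7% of all genes, with a median log2 change of 0.18. Ina (alpha-internexin) rose by 1.54 ± 0.09 (SE; edgeR adjusted p = 4.82e-06) and Synm (synemin) by 1.53 ± 0.34 (SE; edgeR adjusted p = 0.00649). Vim (vimentin, the filament of mesenchymal cells) fell by 1.31 ± 0.08 (SE; edgeR adjusted p = 5.79e-06) and the nuclear lamin Lmna by 0.71 ± 0.08 (SE; edgeR adjusted p = 0.000252). At 24 h both were also lower in iFoxA1 than elsewhere, with log2 differences of -0.56 for Vim (adjusted p = 0.00812) and -0.85 for Lmna (adjusted p = 0.0015).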
